A study of Mus musculus with 10 samples.

Results

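The genes described here are 10 core genes of the Notch pathway: the receptors Notch1, Notch2 and Notch3, the ligands Jag1, Jag2 and Dll1, the glycosyltransferase Lfng and the target genes Hes1, Hey1 and Heyl. They were chosen by name, as the rows of the deposited table whose Ensembl identifier carries that symbol in GENCODE mouse release M21, and all 10 were found among 18381 genes. The samples were first lower molars of wild type C57BL/6JOlaHsd mouse embryos at embryonic day 14 (E14), each kept in a hanging drop of medium for 6 h. In the IGF1 group the medium held mouse recombinant insulin-like growth factor 1 at 750 ng per ml, dissolved in PBS with 0.1% BSA, and in the control group it held the same volume of PBS with BSA alone. Each of 5 embryos (numbered 1, 2, 3, 4 and 6) gave 1 tooth to each group, so n = 5 in both groups and the comparison was made within embryos. A whole tooth germ mixes epithelium, mesenchyme, vessels and blood cells.

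Notch signalling passes between touching cells. A Jagged or Delta ligand on one cell binds a Notch receptor on its neighbour, proteases of the ADAM family and gamma-secretase cut the receptor, and its freed intracellular domain joins the DNA-binding protein RBPJ and a Mastermind coactivator in the nucleus. The complex switches on Hes and Hey genes, which encode basic helix-loop-helix repressors, while Fringe enzymes such as Lfng add sugars to the receptor and alter which ligands it answers to. In the tooth germ the pathway is known for its part in setting apart the cell layers of the dental epithelium, and in vessels Notch3 is a familiar gene of mural cells.

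The libraries held 2845773 to 8403151 counts in control and 3456634 to 8763113 counts in IGF1 teeth, and both teeth of embryo 1 had the lowest total of their group. Expression is given as CPM, normalised counts scaled to the library's total with edgeR's TMM factors, and fold changes as log2 of IGF1 over control. The defining genes of dental mesenchyme and epithelium were present in every tooth, such as Pax9 with 259 ± 28.5 CPM and Krt5 with 775 ± 169 CPM in the control teeth (SD, n = 5). At the other end, Isl1 from a list of neuronal markers had 0 to 2 counts and Foxd3 from a list of glial markers 0 to 7 counts in any tooth.

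The question put to the 10 genes was whether 6 h of IGF1 moved them. Notch3 rose, to 1.35 times its control level, and it was the single member called at an adjusted p-value under 0.05 by edgeR's quasi-likelihood test with the embryo as a block. This is 1 of 10 members, where 11.5% of all tested genes were called in either direction (6.72% higher and 4.76% lower). Lfng was lower in all 5 IGF1 teeth, at 0.695 times the control level, and did not pass. The median log2 fold change of the 10 genes was -0.065, against -0.0038 for all genes tested. Both counts and folds come from whole teeth, where fewer cells of a type and less RNA per cell cannot be told apart.

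**Figure D1:**
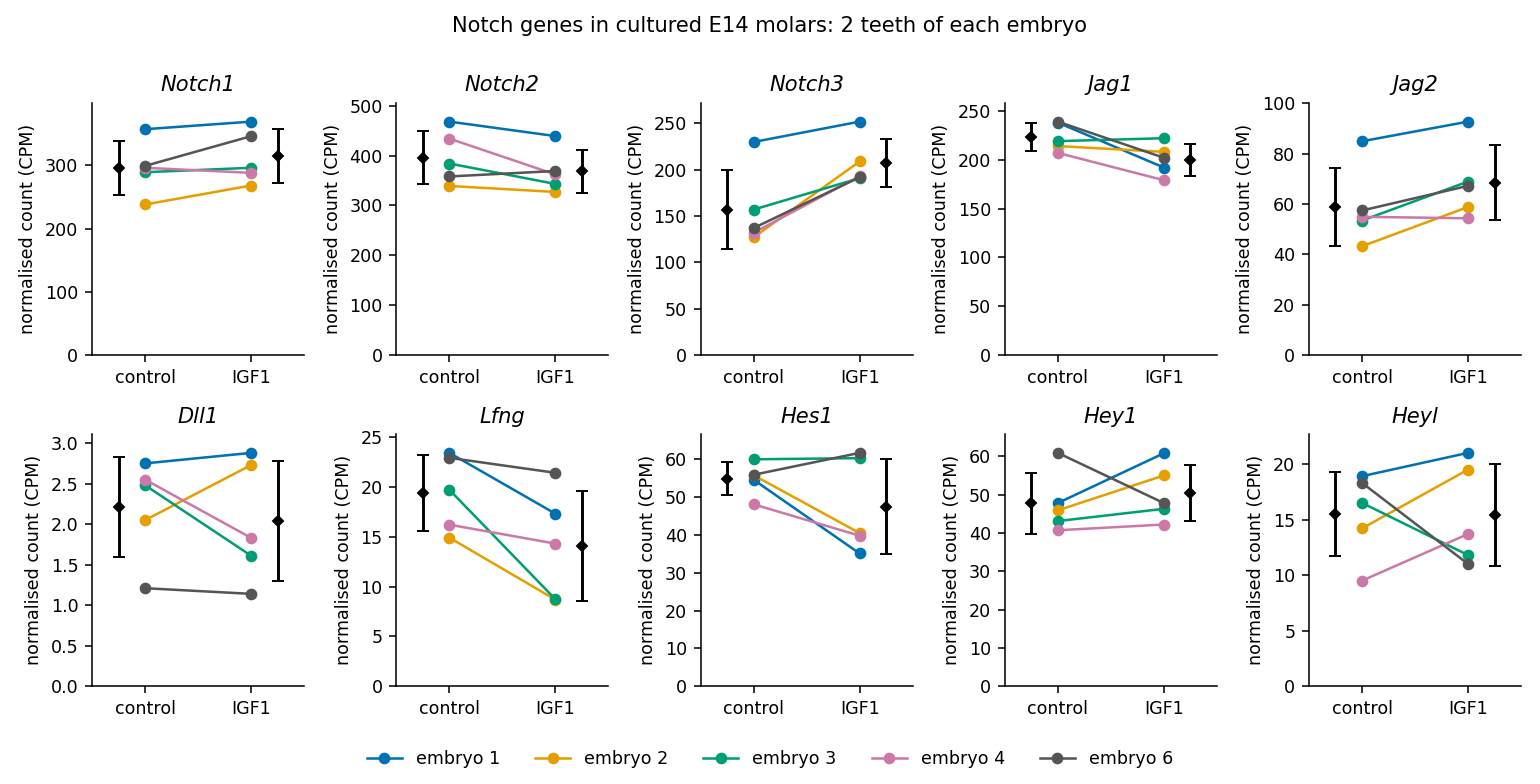
Normalised counts (CPM, linear axis from 0) of the 10 genes in the control and the IGF1 tooth of each embryo, joined by a line in the embryo's colour; diamonds with bars are the mean ± SD of the 5 teeth. All 5 lines of Notch3 rise and all 5 lines of Lfng fall, while every other member has lines in both directions.

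Of the receptors, Notch3 (ENSMUSG00000038146, GRCm38 chromosome 17, 32120820 to 32166852, minus strand) had 230, 127, 157, 132 and 137 CPM in the control teeth of embryos 1, 2, 3, 4 and 6. The IGF1 teeth of the same embryos had 252, 209, 191, 193 and 192 CPM. The IGF1 tooth was the higher of the pair in 5 of 5 embryos, yet the groups overlapped, because the control tooth of embryo 1 lay above every IGF1 tooth but its own partner. The log2 fold change was 0.44 ± 0.085 (SE, 95% interval 0.25 to 0.62), with an adjusted p of 0.00832 from edgeR. Within embryos the difference ran from 0.13 in embryo 1 to 0.71 in embryo 2. Without the embryo block the adjusted p was 0.136 at a log2 fold change of 0.41, so the call rests on the pairing; 0 members were then called, beside 6.12% of all genes. With any single embryo left out it lay between 0.00771 and 0.0441. The antisense gene Gm17276 overlaps the 3′ part of Notch3 in the annotation, and reads of both cannot be told apart where strand was not used in counting.

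The receptor genes Notch1 and Notch2 did not pass the test. Notch1 (ENSMUSG00000026923, chromosome 2, 26457903 to 26516663) had 357, 238, 289, 296 and 299 CPM in the control teeth of embryos 1, 2, 3, 4 and 6, and 369, 268, 296, 288 and 346 CPM with IGF1. Its log2 fold change was 0.084 (95% interval -0.059 to 0.23, edgeR's adjusted p = 0.452), so a rise beyond 1.17 times lies outside the interval. Notch2 (ENSMUSG00000027878, chromosome 3, 98013527 to 98150361) went from 468, 339, 384, 434 and 358 CPM to 439, 327, 343, 362 and 369 CPM in the same order of embryos. It was lower in 4 of 5 embryos, with a log2 fold change of -0.10 (95% interval -0.25 to 0.042, adjusted p = 0.353 from edgeR).

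The change of Notch3 was therefore also set against the other receptors inside each tooth, a comparison that needs no scaling between libraries and was chosen after the values had been seen. The ratio of Notch3 to Notch1 counts was higher with IGF1 in 5 of 5 embryos, by 0.35 ± 0.21 on the log2 scale (SD, n = 5). For Notch3 to Notch2 the difference was 0.54 ± 0.24, again in 5 of 5 embryos. Per kb of exon, Notch3 made up 24.9% ± 2.99 of the summed level of the 3 receptors in the control teeth and 31.4% ± 2.04 in the IGF1 teeth (SD, n = 5). The size of this share depends on the length used, since Notch1 has 14232 bases of exon but 9488 in its longest coding transcript. The 6 ratios computed are descriptions, and with 5 pairs an exact two-sided sign-flip test cannot go below p = 0.0625.

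The stretch of 288 bases just before the Notch3 gene model is printed because Notch3 is the member that changed. It is taken from RefSeq's promoter window (GRCm38.p6, chr17:32166853-32167140, minus strand), written 5′ to 3′ in lower case, with no capitals because no motif searched was found in it.
Notch3: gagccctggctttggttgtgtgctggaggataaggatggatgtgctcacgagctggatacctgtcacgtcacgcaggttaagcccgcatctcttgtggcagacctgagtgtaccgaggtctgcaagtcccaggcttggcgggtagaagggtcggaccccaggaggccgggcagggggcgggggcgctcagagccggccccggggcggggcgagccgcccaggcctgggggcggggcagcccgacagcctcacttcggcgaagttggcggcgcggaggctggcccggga
The motifs were the core of the RBPJ site, TGGGAA, its longer form GTGGGAA and the E-box CACGTG, each read on both strands, and none of these letters occur in the stretch. Windows of 300 bases were found for 7 of the 10 members (8 windows, with 2 for Dll1), and Hes1, Hey1 and Heyl had no entry. Across all 32851 windows of that length, 25.6% held the core, 6.38% the longer form and 7.15% the E-box.

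None of the ligands passed the test, by edgeR and at an adjusted p of 0.05, and Jag1 and Jag2 had opposite signs at an unadjusted p under 0.05. Jag1 (ENSMUSG00000027276, chromosome 2, 137081456 to 137116644), a Jagged ligand, had 238, 214, 219, 207 and 239 CPM in the control teeth of embryos 1, 2, 3, 4 and 6, and 192, 208, 222, 179 and 202 CPM with IGF1. It was lower in 4 of 5 embryos, with a log2 fold change of -0.16 ± 0.070 (SE), an unadjusted p of 0.0477 and an adjusted p of 0.184 from edgeR. The unadjusted p of Jag1 was above 0.05 in several alternatives, such as 0.0642 with DESeq2's Wald test and 0.163 from edgeR without embryo 1. Jag2 (ENSMUSG00000002799, chromosome 12, 112907819 to 112929776), its paralog, had 84.9, 43.2, 53.4, 54.9 and 57.4 CPM and then 92.7, 58.8, 68.9, 54.3 and 67.2 CPM. Both teeth of embryo 1 were the highest of their group. Jag2 was higher in 4 of 5 embryos at 0.23 ± 0.084 (SE), with an adjusted p of 0.101 from edgeR. Without the embryo block its unadjusted p was 0.208 (edgeR). Over all alternatives the adjusted p ran from 0.0893 to 0.413 for Jag1 and from 0.0852 to 0.526 for Jag2.

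The ratio of Jag2 to Jag1 inside each tooth restates these opposite signs, since the pair was formed after they had been seen, and it was higher with IGF1 in 5 of 5 embryos. The difference in log2 ratio was 0.44, 0.49, 0.35, 0.20 and 0.47 in embryos 1, 2, 3, 4 and 6, a mean of 0.39 ± 0.12 (SD, n = 5). The 2 transcripts differ in base composition, with 61.9% GC for Jag2 and 48.8% for Jag1, where the median of the tested genes was 49.3%. The trends of the libraries with GC content and transcript length came to 0.043 for Jag2 and -0.026 for Jag1 on the same scale. With these trends removed, the log2 fold change was 0.19 for Jag2 and -0.13 for Jag1, against 0.23 and -0.16 before. The ratio inside each tooth was not recomputed without the trends, so their part in it was not tested.

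**Figure D2:**
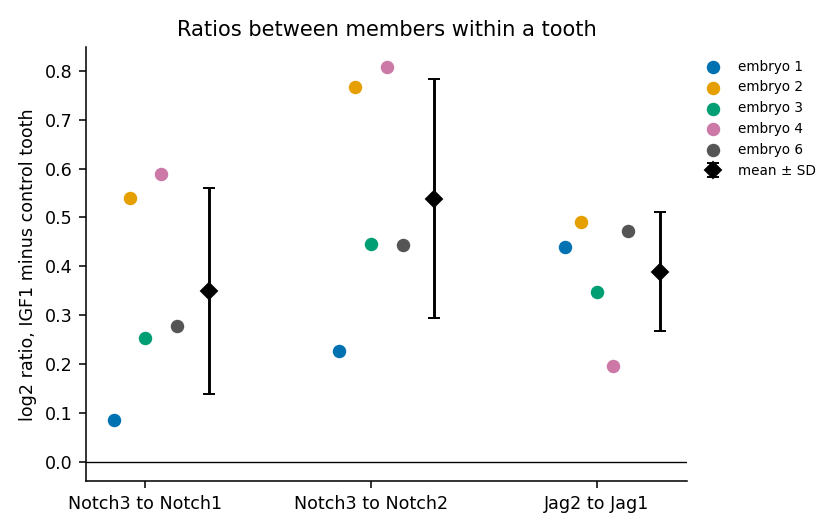
Change in the log2 ratio of the counts of 2 members inside a tooth, IGF1 tooth minus control tooth; each point is an embryo and the diamond with bar is the mean ± SD of 5 embryos. All points lie above 0, from 0.086 (Notch3 to Notch1 in embryo 1) to 0.81 (Notch3 to Notch2 in embryo 4).

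Dll1 (ENSMUSG00000014773, chromosome 17, 15367354 to 15376872), the Delta ligand among the members, was scarce. It had 8 to 23 counts in a tooth, or 2.21 ± 0.613 CPM in control and 2.04 ± 0.745 CPM in IGF1 teeth (SD, n = 5). At this depth the 95% interval of its log2 fold change ran from -0.81 to 0.51 (edgeR), so a change of size 0.5 in either direction was not detectable.

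Lfng (ENSMUSG00000029570, chromosome 5, 140607320 to 140615545), which elongates the O-fucose sugar on Notch receptors, had 23.4, 14.9, 19.7, 16.2 and 22.9 CPM in the control teeth of embryos 1, 2, 3, 4 and 6. With IGF1 the same embryos had 17.3, 8.68, 8.72, 14.3 and 21.4 CPM. The IGF1 tooth was the lower of the pair in 5 of 5 embryos, by a log2 difference of -1.18 in embryo 3 and -0.78 in embryo 2 but of -0.095 in embryo 6, and the groups overlapped. The log2 fold change was -0.52 ± 0.16 (SE, 95% interval -0.89 to -0.16), with an unadjusted p of 0.00886 and an adjusted p of 0.0658 from edgeR. Removing the trends with GC content and transcript length, an alternative added after the data were seen, gave -0.59 and an adjusted p of 0.0256 from edgeR, which is past the threshold. Over all alternatives the adjusted p of Lfng ran from 0.0256 to 0.311. With single embryos left out, its log2 fold change ran from -0.65 (without embryo 6) to -0.36 (without embryo 3).

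Of the 8 member windows, that of Lfng alone held the motifs searched, and its part before the gene model is printed for that reason (RefSeq, GRCm38.p6, chr5:140607091-140607319, plus strand, 229 bases). Capitals mark TTCCCA, the core read on the other strand, and a run in which CACGTG overlaps GTGGGAA.
Lfng: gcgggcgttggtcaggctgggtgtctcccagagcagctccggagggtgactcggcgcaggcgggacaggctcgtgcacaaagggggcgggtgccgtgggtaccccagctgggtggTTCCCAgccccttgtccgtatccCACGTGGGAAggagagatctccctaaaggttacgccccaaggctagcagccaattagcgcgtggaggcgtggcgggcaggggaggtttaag
The core on the other strand lies at 140607206 to 140607211, the E-box at 140607229 to 140607234 and the longer form at 140607232 to 140607238. These are matches of letters, and binding was not measured.

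None of the target genes passed edgeR's test, and none had an unadjusted p under 0.05. Hes1 (ENSMUSG00000022528, chromosome 16, 30064384 to 30067796) had 54.6, 55.8, 60.0, 48.1 and 55.9 CPM in the control teeth of embryos 1, 2, 3, 4 and 6, and 35.1, 40.5, 60.3, 39.8 and 61.7 CPM with IGF1. The control teeth lay close together and the IGF1 teeth fell into 3 low and 2 high values, with an SD of 4.31 CPM in control and 12.5 CPM in IGF1 teeth (n = 5). The log2 fold change was -0.22 ± 0.11 (SE, adjusted p = 0.234 from edgeR).

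Hey1 (ENSMUSG00000040289, chromosome 3, 8663359 to 8667256) had 47.8, 45.9, 43.1, 40.7 and 60.9 CPM in the control teeth and 60.8, 55, 46.3, 42.2 and 47.8 CPM with IGF1. It was higher in 4 of 5 embryos and lower by 0.35 in embryo 6, for a log2 fold change of 0.074 (95% interval -0.15 to 0.30, adjusted p = 0.695 from edgeR). Heyl (ENSMUSG00000032744, chromosome 4, 123233556 to 123249875), a relative of Hey1 also known from vascular smooth muscle, had 18.9, 14.2, 16.5, 9.50 and 18.3 CPM and then 21.0, 19.5, 11.8, 13.7 and 11 CPM. Its difference ran from -0.74 in embryo 6 to 0.53 in embryo 4, which was the widest spread among the targets (SD 0.57), and its fitted log2 fold change of -0.025 had no stable sign: it was 0.097 without embryo 3 and 0.15 without embryo 6.

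**Figure D3:**
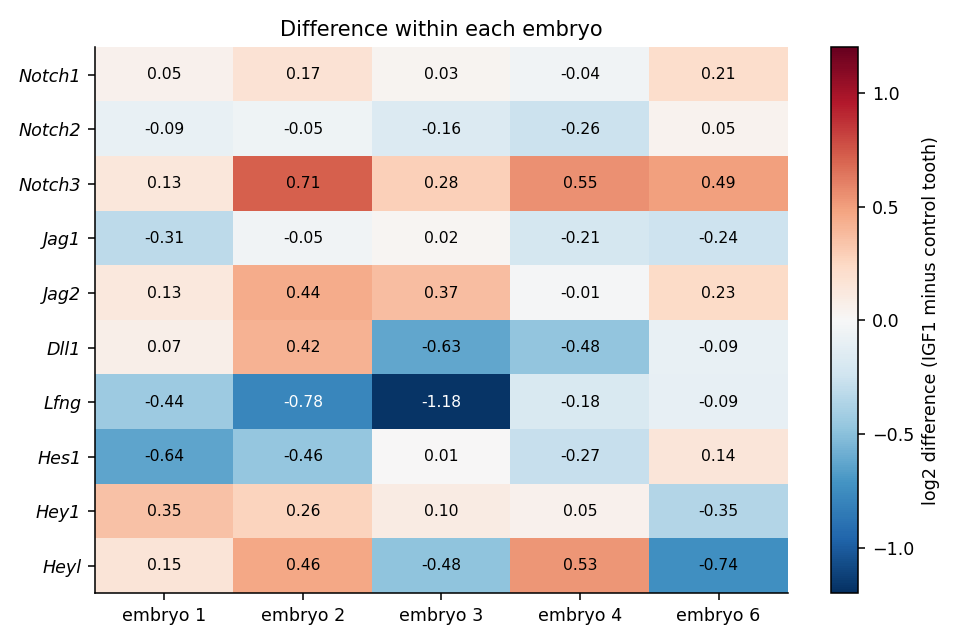
Difference in log2 CPM between the IGF1 and the control tooth of each embryo (columns) for each member (rows), printed in each cell, with red for higher and blue for lower in IGF1. Notch3 is above 0 and Lfng below 0 in all 5 columns, and each of the 8 other members changes sign between embryos.

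Among the 10 members, 2 (Notch3 and Lfng) differed in the same direction in all 5 embryos, where 24.2% of all tested genes did so. The groups overlapped for all 10, while 7.25% of tested genes had groups that did not overlap. An unadjusted p under 0.05 was reached by 4 members, Notch3 and Jag2 higher and Jag1 and Lfng lower, against 26.5% of the tested genes. The number of members called lower was 0 with edgeR, DESeq2's Wald test and limma-voom alike, and 1 (Lfng) with the GC and length trends removed.

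Levels were compared between genes as CPM per kb of annotated exon. In the control teeth the order was Jag1 (38.3 ± 2.50), Notch2 (36.8 ± 4.96), Hes1 (26.9 ± 2.12), Notch1 (20.8 ± 2.98), Notch3 (19.4 ± 5.25), Hey1 (14.6 ± 2.41), Jag2 (8.44 ± 2.23), Lfng (7.75 ± 1.53), Heyl (3.03 ± 0.747) and Dll1 (0.523 ± 0.145; SD, n = 5). Neighbours in that order did not differ beyond their spread for Jag1 and Notch2 (log2 ratio within a tooth 0.069 ± 0.21), Notch1 and Notch3 (0.13 ± 0.21), Notch3 and Hey1 (0.38 ± 0.41), and Jag2 and Lfng (0.11 ± 0.22). In the IGF1 teeth Notch3 stood at 25.6 ± 3.23 CPM per kb, above Notch1 (22.0 ± 2.99) in 4 of 5 teeth, and Jag2 stood above Lfng in 5 of 5 teeth where it had been above it in 3 of 5 control teeth. The order depends on the length used: per kb of the longest coding transcript Hes1 had 37.4, Notch1 31.2 and Hey1 19.7 CPM per kb in the control teeth, and Hey1 then came just before Notch3 (19.5). Notch1 has 14232 bases of exon but 9488 in that transcript, against 8089 and 8016 for Notch3. By the coding transcript Notch1 thus stood well above Notch3 in the control teeth. Their nearness in control and their order with IGF1 are given for exon length only.

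**Figure D4:**
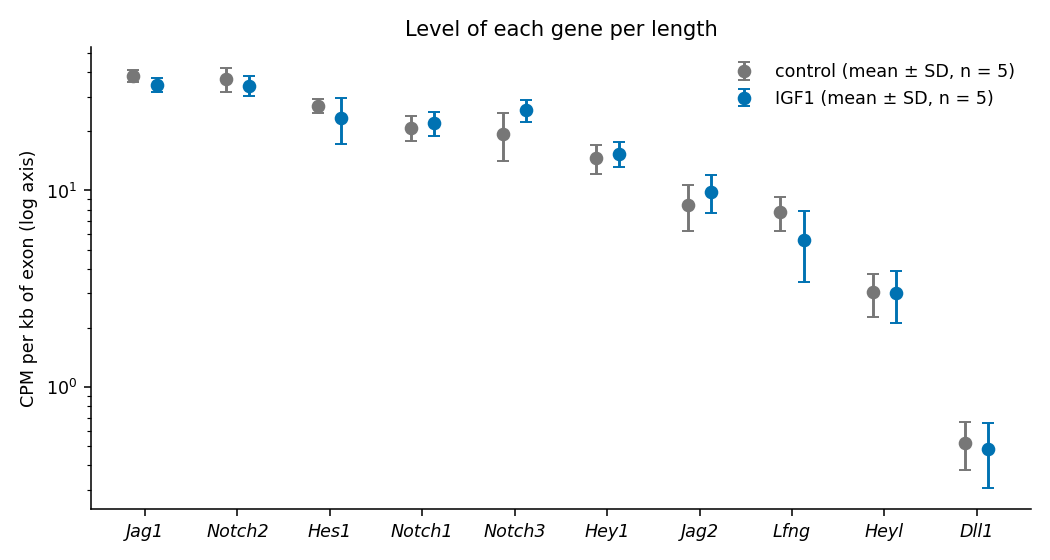
Level of each member in CPM per kb of annotated exon (log axis), ordered by the control mean; points and bars are the mean ± SD of 5 teeth in each group. Jag1 and Notch2 are the most abundant and Dll1 the least, and Notch3 is the member whose groups stand furthest apart among the receptors.

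The rest of the pathway was read from a list of 62 genes, of which 61 were in the table and 60 passed the filter; Hes5 was not analysed here. Of the 60, 2 were called higher (Aph1b and Bhlhe40) and 2 lower (Maml3 and Tle1), 4 in all, beside the 11.5% of all genes. The median log2 fold change was -0.015. No gene was called among the 5 enzymes of receptor glycosylation, the 6 genes of ligand ubiquitination and endocytosis and the 9 of receptor trafficking and turnover, in which 0, 2 and 1 genes had an unadjusted p under 0.05 from edgeR. Over the whole list 16 of 60 did (5 higher and 11 lower), among them 5 of 11 nuclear corepressors and 4 of 10 genes of receptor cleavage, beside 26.5% of all tested genes.

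Maml3, a Mastermind coactivator of the nuclear complex, had 122, 93.6, 99.7, 111 and 109 CPM in the control teeth of embryos 1, 2, 3, 4 and 6 and 90.1, 86.5, 87.8, 83.8 and 84.8 CPM with IGF1. All IGF1 teeth lay below all control teeth, with a log2 fold change of -0.30 ± 0.074 (SE, adjusted p = 0.0270 from edgeR), although the adjusted p rose to between 0.0955 and 0.104 without embryo 1, 4 or 6. Rbpj itself was at -0.15 (adjusted p = 0.147), Maml1 at -0.079 and Maml2 at -0.074, and these did not pass. Tle1, a Groucho corepressor that Hes proteins recruit, had 184, 181, 195, 194 and 204 CPM in control and 169, 121, 143, 144 and 157 CPM in IGF1 teeth, also without overlap. It fell by 0.40 on the log2 scale (SE 0.075, adjusted p = 0.00690 from edgeR), and its adjusted p stayed at or under 0.0360 in every alternative run. The related Tle2, Tle3 and Tle4 had -0.22, 0.012 and -0.25 and did not pass.

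Aph1b, a subunit of gamma-secretase, had 16.5, 18.6, 14.3, 12.9 and 12.1 CPM in the control teeth and 17.3, 24.1, 29.2, 21.2 and 17.4 CPM with IGF1. It was higher in 5 of 5 embryos at 0.57 ± 0.14 (SE, adjusted p = 0.0244 from edgeR), and the call was lost without embryo 3 (0.0792), 4 (0.0895) or 6 (0.0656). Its near copy Aph1c had 4 to 29 counts in a tooth, and how shared reads were split between both is uncertain. Psen2, another subunit of the protease, had -0.48 and was lower in 5 of 5 embryos, with an adjusted p of 0.118 from edgeR. Bhlhe40, a helix-loop-helix repressor that is also a well known hypoxia response gene, had 29.9, 36.8, 29.1, 24.1 and 32.6 CPM in control and 36.3, 101, 48.5, 44.0 and 41.4 CPM in IGF1 teeth. It rose by 0.77 ± 0.15 (SE, adjusted p = 0.00788 from edgeR), with the highest value in embryo 2. Without the embryo block the calls of Aph1b, Maml3 and Bhlhe40 were lost (adjusted p from 0.0521 to 0.0672, edgeR). Their log2 fold changes were then 0.57, -0.30 and 0.84, about as large as with the block.

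Apart from Bhlhe40, which was listed among the targets, the other receptor, ligands and targets did not pass. Notch4, which is mostly endothelial, had 0.067 and Dll4, the main Delta ligand of vessels, 0.29 (adjusted p = 0.198 from edgeR), and Dll3 had 0 to 3 counts in any tooth. The feedback inhibitor Nrarp was higher in 5 of 5 embryos at 0.24 (unadjusted p = 0.0459, adjusted p = 0.180 from edgeR) and so was Hes6 at 0.28 (adjusted p = 0.205). Hey2 (-0.30) and Hes7 (0.10) had at most 77 and 31 counts in a tooth, and their intervals spanned 0.

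**Figure D5:**
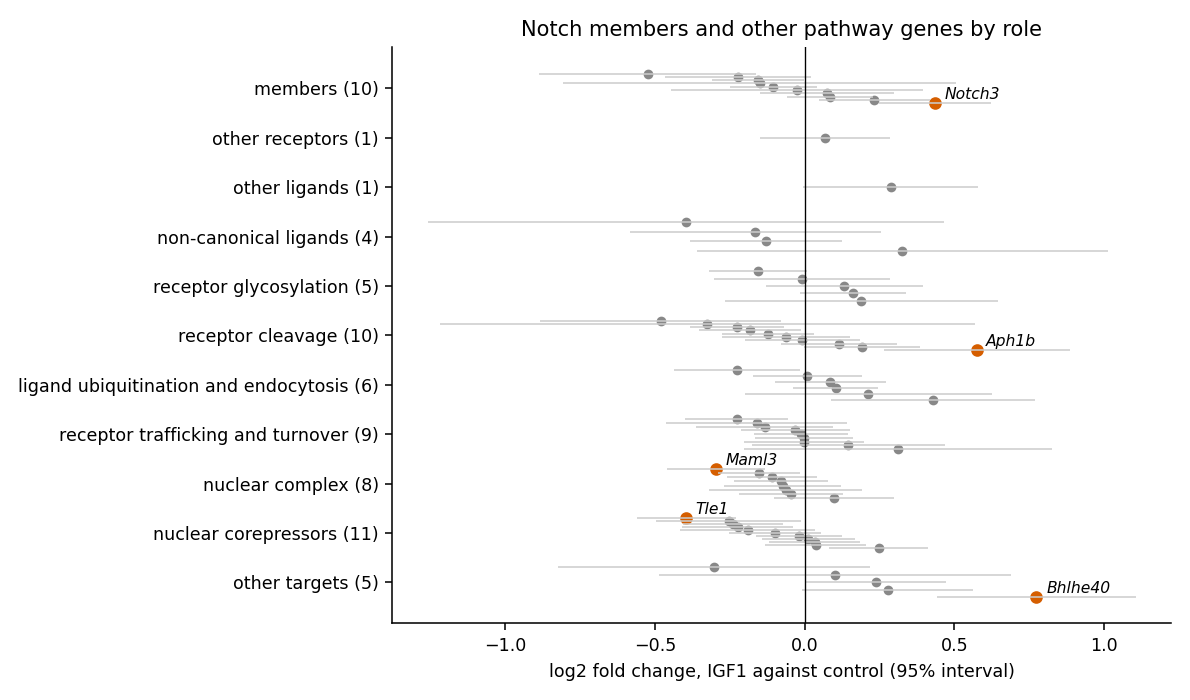
Log2 fold change of IGF1 against control with its 95% interval (edgeR, n = 5 pairs) for the 10 members and the 60 other pathway genes, grouped by role with the number of genes in brackets; orange points passed an adjusted p of 0.05. The 5 labelled genes are the ones called, and every grey point of the other pathway genes lies within 0.5 of 0.

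Since Notch genes differ between cell types, the markers of those types are given beside them. Of all tested genes 6.72% were called higher and 4.76% lower, and 26.5% had an unadjusted p under 0.05 (edgeR). Of 10 mural markers 1 was called higher (Cspg4, 0.29) and 1 lower (Pdgfrb, -0.32), and their summed level was 560 to 684 CPM in control and 529 to 657 CPM in IGF1 teeth. The list was split, with 5 genes above and 5 below 0: Kcnj8, a pericyte potassium channel, had a log2 fold change of 0.41, close to that of Notch3 (unadjusted p = 0.0255, adjusted p = 0.124 from edgeR), Mcam had 0.15 and Abcc9 0.13, while Acta2 had -0.49 and Tagln -0.28. Pdgfrb, at 274 CPM in the control teeth, is the largest part of the sum, and the ratio of Notch3 to the sum was higher with IGF1 in 5 of 5 embryos, by 0.50 ± 0.22 on the log2 scale (SD, n = 5). The part of mural cells in the rise of Notch3 was not tested. Of 12 endothelial markers 2 were lower (Cdh5 and Esam) and 0 higher, with a summed level of 461 to 530 CPM and 378 to 500 CPM. In all, 10 of the 12 lay below 0, and 6 were lower and 1 higher at an unadjusted p under 0.05 (edgeR). Flt1, a VEGF receptor on that list, was at 0.46 and higher in 5 of 5 embryos (adjusted p = 0.0506 from edgeR), against the direction of the sum. Of 12 mesenchymal markers 2 were called lower (Vim and Pdgfra), with 10 below 0 and 5 lower at an unadjusted p under 0.05 (edgeR). Of 14 epithelial markers 1 was called higher (Krt5), with 7 above and 7 below 0. Of 9 genes of the enamel knot and tooth epithelium 3 were called lower (Shh, Sostdc1 and Lef1). In all, 7 of the 9 lay below 0, and 6 were lower at an unadjusted p under 0.05 (edgeR). Wnt10a (0.45) and Cdkn1a (0.37) lay above 0 and did not pass. The sum of the 9 was 366 to 551 CPM in control and 251 to 375 CPM in IGF1 teeth. Sostdc1 (201 CPM in the control teeth) and Lef1 (120 CPM) were its largest parts. Of the erythroid markers 2 of 3 tested were lower (Hba-a1 and Hbb-bt), of 6 macrophage markers 1 was lower (Csf1r), the 1 neuronal marker tested was higher (Tubb3), and of the 3 glial, 1 muscle and 4 cartilage and bone markers tested 0 were called, with 1, 0 and 1 at an unadjusted p under 0.05 (edgeR). The mean log2 difference of the summed level was -0.071 for the mural, -0.18 for the endothelial and -0.14 for the mesenchymal markers. It was -0.49 for the list of enamel knot and tooth epithelium. For the other lists it was -0.52 (erythroid), -0.21 (macrophage), -0.19 (glial), -0.14 (cartilage and bone), 0.079 (epithelial) and 0.63 (neuronal). The muscle sum had no common direction, with differences from -2.85 to 1.79 between embryos. In embryo 3, where Lfng differed most (-1.18), the endothelial, mesenchymal, mural and erythroid sums also differed most (-0.39, -0.37, -0.24 and -0.83). So did the epithelial sum in the opposite direction (0.34), and the sum of enamel knot and tooth epithelium differed least (-0.14). In embryo 2, where Lfng had -0.78, the same sums had -0.097 (endothelial), 0.029 (mesenchymal), 0.073 (mural), -0.23 (erythroid), 0.18 (epithelial) and -0.51 (enamel knot and tooth epithelium). Their part in the lower values of Lfng was not tested.

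The genes whose levels followed Notch3 most closely over the 10 teeth were Mast3 (Pearson's r = 0.958), Plcxd1 (0.947), Klhl26 (0.937), Megf6 (0.937) and Kcnn1 (0.936), computed across log2 CPM of teeth that share embryos and library depth, and given as a description. Of these, Mast3 (log2 fold change 0.53), Plcxd1 (1.31) and Klhl26 (0.39) were also called higher with IGF1. Their transcripts held 57.0% to 60.1% GC, close to the 59.6% of Notch3 and above the upper quartile of the tested genes (54.2%). After the GC and length trends had been removed from each library, Notch3 had a log2 fold change of 0.41 and an adjusted p of 0.00428 from edgeR.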

How the data were processed

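The authors deposited estimated counts per gene for 10 molars; per the labels the reads were checked with FastQC 0.11.8, trimmed with Trimmomatic 0.39 and quantified with Salmon 0.99.0 on GRCm38. The transcript set and strand use are not given in the sources used here, so reads of overlapping genes and of paralogs may be split. All values were whole numbers. Every gene listed has at least 10 counts in all.

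Genes passing filterByExpr (14504) were tested with edgeR 4.0.16 (R 4.3.3), TMM and the quasi-likelihood test, with embryo as a block and Benjamini-Hochberg adjustment over all of them. The labels pair the teeth by embryo; deviations from group means correlated within pairs at 0.319, 0.208, -0.0389, 0.170 and 0.313 (embryos 1, 2, 3, 4 and 6). Teeth of a group differed by 4.68 to 19.4 chi-square per degree of freedom. Tested on simulated data for this comparison (14504 genes, 200 changed by a log2 of 1), 82.1% of the changed genes were recovered and 8.55% of calls were false. The false share lay above the 0.05 aimed at. The simulated counts held no embryo effect, and every member changed by less than a log2 of 1. The share recovered therefore does not tell how often changes of the members' size are found. Alternatives were DESeq2 1.42.0 (Wald test and size factors), limma-voom (limma 3.58.1), other filters, no block, each embryo left out and, added later, GC and length trends removed, the longest coding transcript as length, and ratios inside a tooth. The named genes are the 10 members, the listed pathway genes past the threshold with the other receptor, ligands and targets, and the 5 genes most like Notch3; relatives and partners of a called gene (Psen2, Rbpj, Maml1, Maml2, Tle2, Tle3, Tle4 and Aph1c) and single marker genes were named outside that rule, after their values were seen. The members and lists were chosen with earlier results of these data known. Protein sequences were not used here, and the values of some listed genes are not reported here.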

Additional observations from a re-analysis of the deposited data

Results flagged for a closer look

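Both teeth of embryo 1 stood far above the other 4 of their group for Notch3. The control tooth had 230 CPM against 127 to 157 CPM, a gap to the nearest tooth of 0.711 of the group's range, and the IGF1 tooth had 252 against 191 to 209 CPM (0.710), where 0.710 is the critical value for 5 samples. Of 20 groups of member values checked, 2 had such a tooth where about 1 would by chance. Both teeth also had the highest GC and length trend at Notch3, 0.215 and 0.216 on the log2 scale against -0.223 to 0.105 and -0.137 to 0.0718 in the others. With the trend removed the control tooth had 198 against 123 to 160 CPM, a gap of 0.509 of the range, and the IGF1 tooth had 217 against 184 to 219 CPM and was no longer the highest.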

How the results depend on the processing

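Of 120 alternative values of the 10 members' log2 fold changes, 116 kept their direction and side of the threshold. Without the replicate block, 887 genes were called in place of 1666, 0 members in place of 1 (1 member at an unadjusted p under 0.05, by edgeR) and 1 other pathway gene, Tle1, in place of 4, and Notch3 had a log2 fold change of 0.41; the block changed no other member's call. With GC and length trends removed, 2 members were called, with Lfng at -0.59, and 2079 genes in all. Leaving out each embryo gave 986 to 1602 genes, 1 member each time (Notch3) and 2 to 5 other pathway genes, the low ends being 986 and 2 without embryo 4 and 994 and 2 without embryo 6, and moved Heyl from -0.16 to 0.15. None of the following was called either way, but the log2 fold change ran from 0.017 to 0.18 for Hey1, -0.32 to -0.016 for Dll1, 0.048 to 0.12 for Notch1, -0.15 to -0.065 for Notch2 and -0.32 to -0.14 for Hes1. Each embryo left out removes 2 teeth; no cause was tested for the shifts under the remaining settings. Dll1 had the lowest counts of the members, 8 to 23 in a tooth, while Heyl and Lfng had at least 55 and 60.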
